A study of Nicotiana tabacum with 6 samples.

Results

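The early cloned tobacco genes on this array are the probes whose identifier is an old-style sequence record of 1 letter and 5 digits. The pattern found 384 of the 43759 non-control probes, carrying 278 records. Of these, 347 probes (248 records) were well above background on 3 or more of the 6 arrays and were tested, among 30942 tested probes in all. The study hybridised total RNA of tobacco (Nicotiana tabacum) suspension cells to 1-colour Agilent arrays and compared 3 samples of the wild-type line SL with 3 of ALT301, described in the title as its isogenic, aluminium-tolerant partner. Flasks of either line were kept dark at 25 °C and 100 rpm in modified Murashige-Skoog medium, labelled normal condition, and sampled in the logarithmic phase. The labels name no aluminium treatment and do not say how ALT301 was obtained. Nor do they say that replicates are separate cultures, so p-values here reflect only the spread among the samples, possibly a technical one.

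Aluminium ions become soluble in acid soil, where they stop root growth, and cultured tobacco cells have long served as a single-cell model of that injury. Tobacco is an allotetraploid, so many of its genes exist as near-identical copies from both parent genomes, and a probe designed on 1 cloned copy may hybridise with the other. Before large collections of expressed sequence tags (ESTs, single-pass reads of random cDNA clones) existed, plant genes entered the databases one at a time, each cloned and sequenced because a laboratory was studying it. The first letter of such a record shows where it was filed: X, Y and Z were used by the EMBL library, D by the Japanese archive, L, M and U by GenBank, S for sequences taken from journals and A for patents. The letter T was given to ESTs, so the 6 probes of T records go against the description of individually cloned genes. Leaving them out lowered no count of called probes below by more than 3. The array files pair no record with a gene name, and 0 of the 278 records matched the RefSeq gene table used here (assembly ASM71507v2), so the records are described by identifier, count and range, without functions.

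A larger share of the cloned genes than of all probes was detected on all 6 arrays. Of the 384 probes, 330 (85.9%) were well above background on all 6 arrays, against 63.2% of all non-control probes, and 28 (7.29%) on none, against 22.7%. Levels are given as the log2 processed signal minus each array's 75th percentile, so that 0 is the 75th percentile of the array. The median level of the 347 tested probes was 0.41, 0.46 and 0.46 on the SL arrays and 0.61, 0.67 and 0.64 on the ALT301 arrays. Over all tested probes it lay between -1.34 and -1.29 on the 6 arrays. On this scale the median level of the cloned genes was thus higher on each ALT301 array than on any SL array. That of all tested probes was nearly level between the lines, which the scaling to a percentile of each array largely brings about. Scaled on spike-in probes instead, the median difference, ALT301 minus SL, was -0.11 log2 units for the cloned genes and -0.22 over all tested probes. At the edge of the detection rule, the 10 probes well above background on exactly 3 arrays had a signal of 33.1 to 340.0 intensity units on their brightest array, and the 5 on exactly 2 arrays had 24.0 to 82.2. Of the 37 probes that were not tested, 8 had a positive and significant signal on all 6 arrays and 7 on none.

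The 2 lines differed in most of these genes, and the large differences were more often higher in ALT301. A difference is the ALT301 level minus the SL level in log2 units, and a probe is "called" where limma, fitted over all 30942 tested probes, gave an adjusted p under 0.05. Of the 347 probes, 274 (79.0%) were called, against 71.3% of all tested probes. With spike-in scaling and a slide block the order of these shares turned, to 44.1% against 46.6%. Higher in ALT301 were 157 (45.2%, against 34.3% of all tested probes) and lower were 117 (33.7%, against 37.0%). Scaled on the spike-in probes with a slide block in the fit, this direction turned, with 73 higher and 80 lower. Of the calls at that setting 47.7% were higher, against 35.7% over all tested probes, where the main fit had 57.3% against 48.1%. The 2 lines did not overlap, with each array of one line above each array of the other, in 292 of the 347 probes (84.1%, against 75.8% of all tested probes). ALT301 lay above in 165 of them (47.6%, against 36.3%) and SL in 127 (36.6%, against 39.5%). Among the 330 probes well above background on every array 260 were called (78.8%, against 72.7% of all such probes), 90 of them with at least 2-fold (27.3%, against 25.4%).

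**Figure D1:**
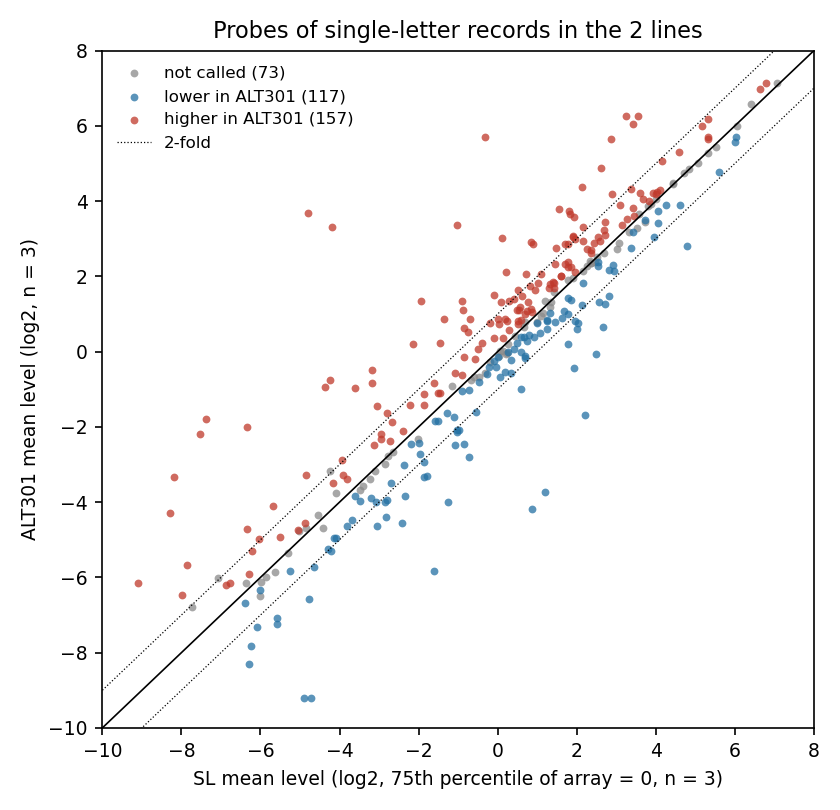
Mean level of each tested probe of a single-letter record in SL (x axis) and ALT301 (y axis), as log2 signal relative to the 75th percentile of the array, 3 arrays per line. The solid line marks equal levels and the dotted lines 2-fold differences. Most points lie near the solid line, and the points farthest above it, those of M20618, had SL means of -4.81 and -4.20.

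Most called differences were small. Under 2-fold lay 170 of the 274 called probes (49.0% of those tested, against 43.4% of all tested probes). At least 2-fold, 61 probes were higher (17.6%, against 13.3% of all tested probes) and 43 were lower (12.4%, against 14.5%). This balance turned to 49 and 52 with spike-in scaling and slide block, a setting for which the shares over all tested probes are not given here. At least 4-fold, 30 probes of 23 records were higher (8.65%, against 4.72%) and 13 probes of 9 records were lower (3.75%, against 4.32%). At this size more probes were higher than lower under each of the 19 alternatives run on the probes, with 24 to 31 higher and 9 to 15 lower. These alternatives reuse the same arrays, and their shares over all tested probes are not given here. In the main fit all tested probes also had more higher than lower at this size, so this order alone is not particular to the cloned genes. At least 8-fold, 13 probes of 9 records were higher (3.75%, against 2.25%) and 6 probes of 2 records were lower (1.73%, against 1.72%) by their fitted differences, some of which rest on a line below the detection limit. Among the 330 probes well above background on every array, 24 were at least 4-fold higher (7.27%, against 3.22% of all such probes) and 10 at least 4-fold lower (3.03%, against 3.07%). At 8-fold these counts were 9 higher (2.73%, against 1.13%) and 4 lower (1.21%, against 0.962%).

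**Figure D2:**
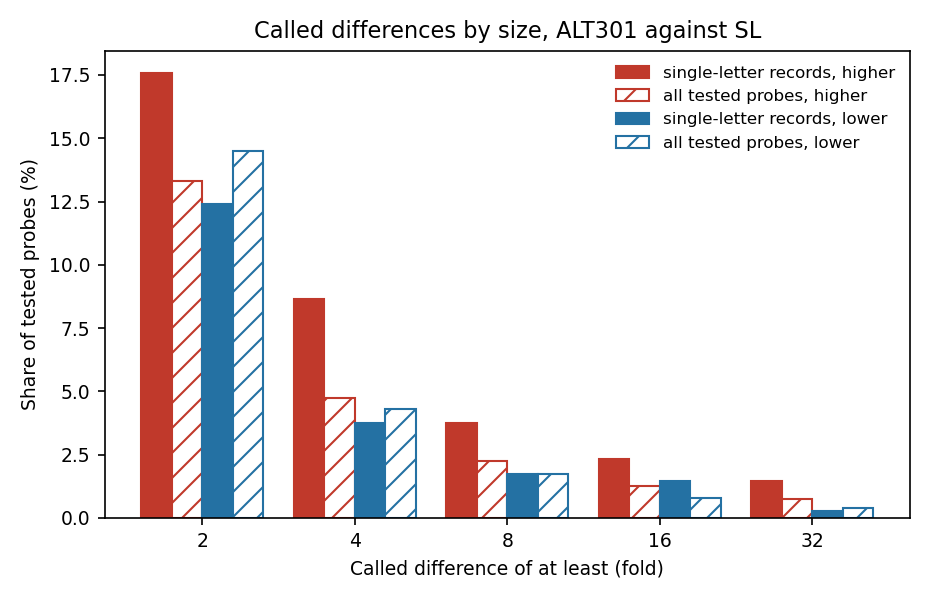
Share of tested probes (y axis, percent) with a called difference of at least the fold on the x axis, for the 347 probes of single-letter records (filled bars) and all 30942 tested probes (hatched bars), higher in ALT301 in red and lower in blue. At 4-fold the filled red bar stands at 8.65% and the hatched one at 4.72%, while the blue bars stand at 3.75% and 4.32%.

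The median difference of the 347 probes was 0.08 log2 units, with quartiles of -0.37 and 0.69, beside a median of -0.04 and quartiles of -0.61 and 0.54 over all tested probes. Its sign turned under spike-in scaling, where it was -0.11 beside -0.22 over all tested probes. The median absolute difference was 0.60 log2 units, close to the 0.58 over all tested probes. Arrays of the same line differed by far less: the median SD between replicates was 0.10 log2 units, close to the 0.11 over all tested probes. In 309 of the 347 probes the difference between the lines exceeded the SD of either line, a count not given here for all tested probes. A replicate SD over 0.5 log2 units was found for 15 probes in at least 1 line, 7 of them well above background on all 6 arrays.

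M20618 had the highest differences of all the cloned genes. Both of its probes on the array, A_95_P001721 and A_95_P005211, showed the same pattern, a weak signal on every SL array and a strong one on every ALT301 array. For A_95_P001721 the levels were -4.85, -4.70 and -4.89 on the SL arrays and 3.47, 3.82 and 3.78 on the ALT301 arrays. The processed signals behind them were 114, 155 and 110 intensity units in SL and 38400, 43700 and 44700 in ALT301. The difference was 8.50 ± 0.11 log2 units (SE, n = 3 arrays per line), or 363-fold (limma, adjusted p = 2.23e-07). On A_95_P005211 the SL arrays gave -4.20, -4.07 and -4.32 and the ALT301 arrays 3.11, 3.44 and 3.37, a difference of 7.51 ± 0.11 log2 units or 182-fold (limma, adjusted p = 2.99e-07). All 6 arrays were well above background for both probes, so the low level in SL was measured and not a limit. Under normexp background correction, which adds an offset to every signal, the differences were 7.79 and 7.0 log2 units.

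X65700 was the record with the next highest difference, chosen for naming after its values were seen. Its probe A_95_P176202 had levels of -0.29, -0.38 and -0.26 in SL and 5.63, 5.77 and 5.77 in ALT301. The difference was 6.03 ± 0.07 log2 units (SE, n = 3 arrays per line), or 65.3-fold (limma, adjusted p = 1.61e-07), and the 2 lines did not overlap. The record's other probe, A_95_P004201, stayed near background on all 6 arrays and passed the limit on none. Its processed signals were 4.13, 5.80 and 4.70 in SL and 5.34, 14.8 and 4.33 in ALT301. The difference therefore rests on 1 of the 2 probes, and whether the probes meet the same transcript was not tested.

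X52744 had the lowest differences among the cloned genes. It was carried by 4 probes, all well above background on all 6 arrays and all lower in ALT301. Probe A_95_P006301 had levels of 0.87, 0.55 and 1.22 in SL and -4.15, -4.51 and -3.86 in ALT301, a difference of -5.05 ± 0.23 log2 units (SE, n = 3 arrays per line), or 33.2-fold lower (limma, adjusted p = 8.76e-06). Probe A_95_P000121 had levels of 1.18, 0.84 and 1.60 in SL and -3.61, -4.10 and -3.51 in ALT301, a difference of -4.95 ± 0.24 log2 units or 30.9-fold lower (limma, adjusted p = 1.15e-05). The other two probes of this record, chosen after their values were seen, gave smaller differences. A_95_P002821 stood at -1.62 ± 0.30 in SL and -5.83 ± 0.16 in ALT301 (mean ± SD, n = 3), a difference of -4.21 ± 0.17 (SE, limma, adjusted p = 5.94e-06). A_95_P260071 stood at 2.21 ± 0.25 in SL and -1.68 ± 0.22 in ALT301 (mean ± SD, n = 3), a difference of -3.89 ± 0.17 (SE, limma, adjusted p = 7.41e-06). Under normexp the 4 differences, in the order given, were -4.44, -4.53, -3.19 and -3.79. Replicate 3 gave the highest level of each line, and replicate 2 the lowest, on all 4 probes.

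U57350, likewise chosen after its values were seen, was the record with the next lowest fitted difference. That rank is not established, since the ALT301 signals behind it lie below the detection limit and other records measured in both lines differed by more than its bounds. Both of its probes were well above background in SL throughout and on none of the ALT301 arrays. On A_95_P252184 the SL levels were -5.12, -4.57 and -4.48, and the processed signals were 94.3, 170 and 147 units in SL and 6.36, 5.46 and 4.98 in ALT301. Put at its lower bound, with the ALT301 arrays no dimmer than the faintest probe well above background, the signal was at least 5.73-fold lower in ALT301 for A_95_P252184 and at least 5.08-fold lower for A_95_P017101. The fitted differences of -4.47 and -4.30 log2 units depend on values below the detection limit and are given without a test. Under normexp background correction they were -1.19 and -1.21 log2 units.

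**Figure D3:**
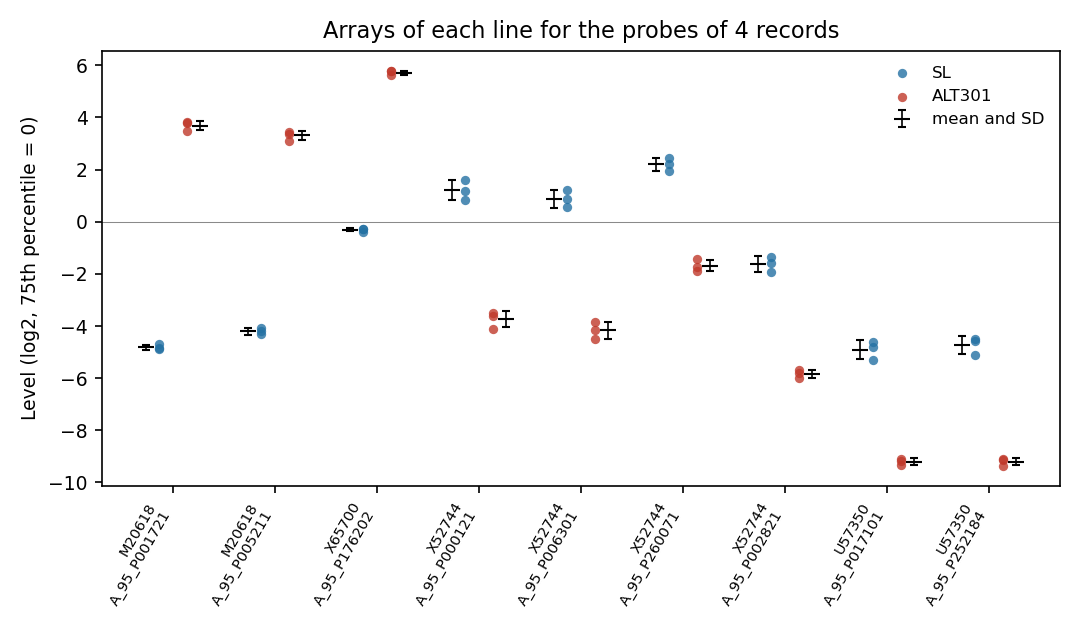
Level on each array (points) of the 9 tested probes of the 4 records given by identifier, with the mean and SD of 3 arrays per line (bars). On each probe the SL and ALT301 points are far apart relative to their spread, and the ALT301 points of U57350 lie near -9, below the detection limit.

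Detection in 1 line only was uncommon among the cloned genes. It was found for 9 of the 347 probes (2.59%, against 3.78% of all tested probes), counting those well above background on each array of one line and on none of the other. ALT301 was the detected line for 5 (1.44%, against 1.77%) and SL for 4 (1.15%, against 2.01%), which include both U57350 probes. The rule that selects these 9 probes also makes the lines differ, so their calls say nothing more. Lower bounds of the difference lay between 1.73-fold and 15.4-fold for those detected in ALT301 only, and between 1.95-fold and 5.73-fold for those detected in SL only. The record of the 15.4-fold probe has another tested probe, well above background on all 6 arrays, with a difference of 4.36 log2 units. That record was thus detected in SL too. In each direction 1 probe had a bound under 2-fold. Under the more lenient limit of a positive, significant signal, 3 of the 384 probes were detected in a single line.

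Counted by record, 105 of the 248 tested records had only probes called higher (42.3%, against 33.2% of the 28184 identifiers tested) and 79 only probes called lower (31.9%, against 36.5%). All probes were called and at least 2-fold higher in 40 records (16.1%, against 12.9%), and called and at least 2-fold lower in 30 (12.1%, against 14.4%). No probe was called in 52 records (21.0%, against 28.6%). The cloned genes had more tested probes per record (347 over 248) than identifiers in general (30942 over 28184). The shares by record are therefore not like for like. Several tested probes were available for 75 records, and they mostly gave the same answer. In 36 of these every probe was called higher, in 21 every probe was called lower, and in 6 none was called. The differences of the probes of 1 record spanned a median of 0.15 log2 units. The span was under 0.2 log2 units in 44 records and over 1 log2 unit in 8. These counts and spans are not given for the other identifiers with several probes, so the agreement is not shown to be particular to the cloned genes.

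Probes of 1 record were called in opposite directions in 3 of the 75 records. In the record with the widest span, 3.71 log2 units, 1 probe had levels of -1.93, -1.99 and -1.90 in SL and 1.37, 1.39 and 1.27 in ALT301, a difference of 3.28 ± 0.06 log2 units (SE, n = 3 arrays per line). The other probe of that record had levels of 1.13, 1.24 and 1.36 in SL and 0.76, 0.92 and 0.78 in ALT301, a difference of -0.42 ± 0.08 (limma, adjusted p = 5.02e-07 and 0.0041). In another of the 3 records, 1 probe differed by 1.26 ± 0.10 and the other by -0.26 ± 0.08 log2 units (limma, adjusted p = 8.51e-05 and 0.0275). In the last, 3 probes differed by -0.34, -0.34 and -0.27 and the fourth by 0.27 log2 units, with adjusted p from 0.00423 to 0.0276 (limma). All 8 probes were well above background on all 6 arrays, and on each of them the 2 lines did not overlap. Which transcripts these probes meet was not tested, because the files used here hold no probe sequences.

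**Figure D4:**
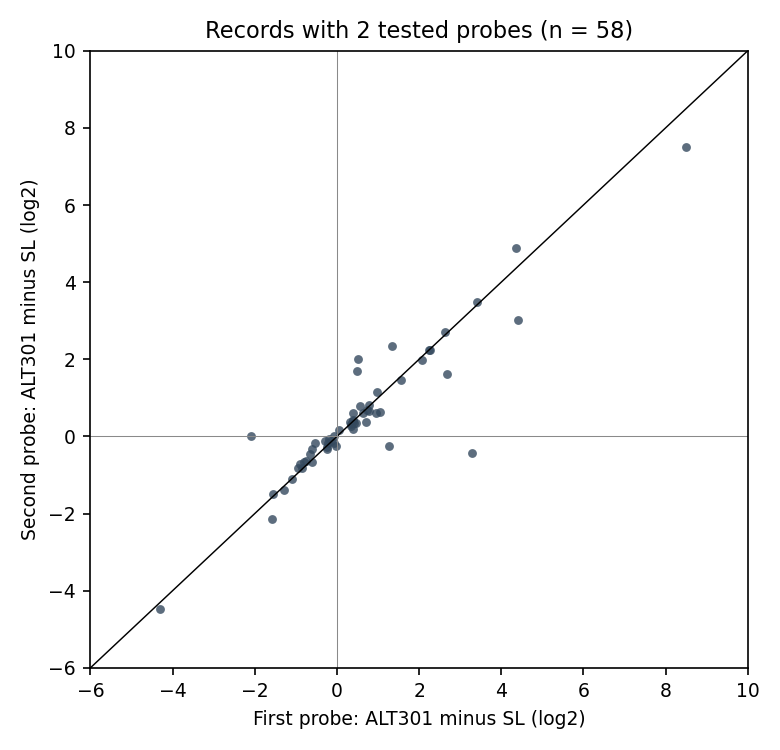
Difference between the lines (ALT301 minus SL, log2) of the first probe (x axis) and the second probe (y axis) for the 58 records with 2 tested probes, each point a record. Most points lie close to the line of equality. M20618, at 8.50 and 7.51, lies off it with both probes far above 0, and the record with 3.28 and -0.42 lies farthest from it.

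The cloned genes that were not called were mostly measured closely. 73 probes were not called, with differences between -0.48 and 1.07 log2 units, and 9 of them had an unadjusted p under 0.05. The 95% interval of the difference reached a median of 0.21 log2 units to either side. It lay within 2-fold in both directions for 68 of the 73 probes, so a larger difference fell outside the interval there. Uncalled probes with such an interval made up 19.6% of the tested cloned-gene probes and 23.5% of all tested probes. Called probes are in the base of both shares, so they do not compare how closely uncalled probes were measured. In 19 of the 73 the arrays of the lines did not overlap, although the adjusted p did not pass. The matching count over all tested probes is not given here, so this is not shown to be particular to the cloned genes.

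By first letter, X records held the most probes and had more lower than higher calls. Over all tested probes the shares were 34.3% higher and 37.0% lower, and at 2-fold 13.3% and 14.5%. Of 123 tested X probes, 47 were higher (38.2%) and 55 lower (44.7%), with 20 (16.3%) and 27 (22.0%) at 2-fold. Of 58 U probes, 32 were higher (55.2%) and 16 lower (27.6%), with 12 (20.7%) and 5 (8.62%) at 2-fold. Among 69 Y and Z probes, 39 were higher (56.5%) and 15 lower (21.7%), and at 2-fold 12 were higher (17.4%) and 0 lower. That none was 2-fold lower held under the alternatives run, except with spike-in scaling and slide block together, which gave 9 higher and 2 lower. Of the 43 D probes, 27 were called (62.8%, below the 71.3% over all tested probes), 16 higher and 11 lower. M records had 9 higher and 8 lower of 20, L records 7 and 6 of 18, S records 5 and 3 of 8, T records 1 and 2 of 6, and A records 1 and 1 of 2. These are counts with no test of a difference between letters, and several probes share a record.

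**Figure D5:**
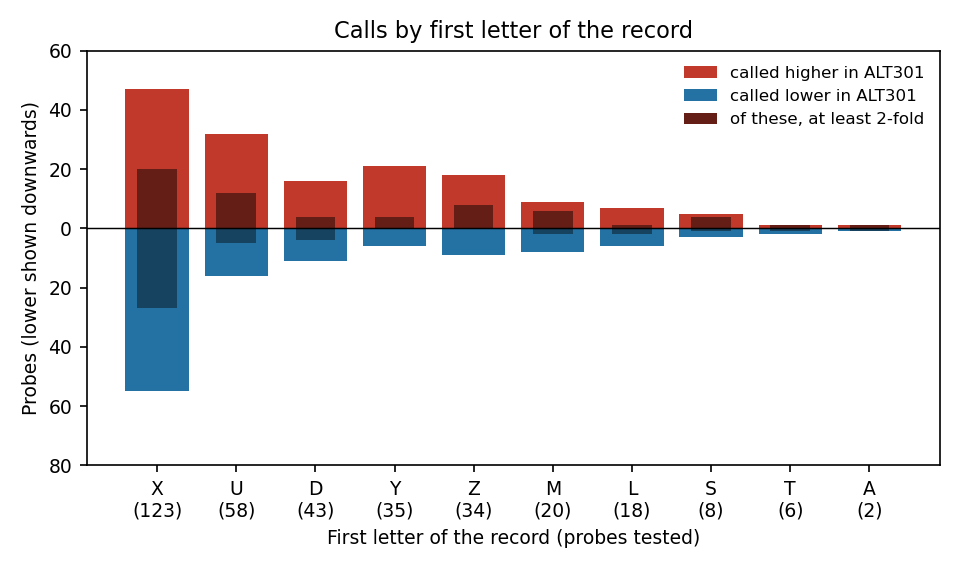
Number of probes called higher (upwards, red) and lower (downwards, blue) in ALT301 by first letter of the record, with the number of tested probes under each letter. The narrow dark bars are the called probes with at least a 2-fold difference, and Y and Z have none of these downwards.

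The cloned genes were brighter than most probes, and the lean towards ALT301 was seen among the bright ones. When all 30942 tested probes were split into 3 equal classes by mean level, 190 of the 347 cloned-gene probes (54.8%) fell into the brightest class. There, 98 were called higher and 52 lower, so that 65.3% of their calls were higher, against 51.1% for all probes of that class. In the middle class 36 were higher and 37 lower (49.3% higher, against 47.4%), and in the dimmest 23 and 28 (45.1% higher, against 45.0%). In the brightest class more cloned genes were higher than lower under every alternative run. The narrowest margins came with spike-in scaling, at 18 against 11, and with its slide block, at 39 against 31. Shares over all probes of that class are not given for the alternatives, so these counts do not tell the cloned genes from the class. The share called in the 3 classes, from dim to bright, was 73.9%, 83.0% and 78.9%, against 59.6%, 77.4% and 76.8% of all probes. No test of these differences between the cloned genes and the other probes was made.

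Set beside later records, the probes whose identifier starts with AB, AF, AJ, AY, DQ, EF or EU, 1145 of them tested, were called in 74.2% of cases, 36.9% higher and 37.3% lower. At 4-fold 4.28% of those were higher and 5.76% lower, where the single-letter records had 8.65% and 3.75%. At 2-fold in either direction the shares were 30.1% and 30.0%, beside 27.9% of all tested probes.

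The arrays lay on 2 slides, with replicates 1 and 2 of both lines on slide 1 and replicate 3 of both on slide 2. All 274 called probes had the same sign on both slides, as did 22028 of 22031 over all tested probes. The calls came from these same arrays, so this agreement is no independent check. Of the 104 called probes past 2-fold, 94 passed it on each slide taken alone, against 7554 of 8617 over all tested probes. On slide 1 alone limma called 250 of the 347 probes (72.0%, against 66.3% of all tested probes). Slide 2 holds 1 array of each line and gives values without a test. The differences on the 2 slides correlated at 0.984 across the probes and at 0.949 over all tested probes (Pearson's r, where probes are not independent and those of each slide share arrays).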

How the data were processed

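Per the file headers, the scanner files (1 for each array) came from Agilent Feature Extraction 11.5.1.1. The deposited processed signal is a linear intensity, already background-subtracted and detrended over the array surface. Labelling with Cy3 started from 200 ng of total RNA, per the labels' protocols. A table of log2 values was deposited too. Its 6 columns correlated at 0.9994 to 0.9997 with the scanner signal. For this the signal was taken to log2, scaled to the 75th percentile and then centred on probe medians. The correlation bears on direction and on centring by probe, but it cannot fix the scale. A fit to the deposited values gave differences of 8.5 and 7.51 log2 units for the M20618 probes, the same as the main fit. The columns had medians of -0.0294, -0.0033 and 0.0321 (SL) and 0.0271, -0.0101 and -0.0107 (ALT301), and every column mapped to a sample.

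Control spots were dropped and outlier-flagged spots set missing (1 spot of the cloned genes). Spots of a probe were averaged before the 75th percentile of the array was subtracted. Median processed signals were 247.6 to 324.1 units, and the number of arrays limits the precision. Every probe well above background on 3 or more arrays entered 1 limma fit (limma 3.58.1, R 4.3.3) with line as its single term, two-sided, with Benjamini-Hochberg adjustment. The fit was tested on simulated data.

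The members and lists were chosen with earlier results of these data known. Probes were named by rule where they had the 2 highest or 2 lowest differences among called probes without overlap of the lines. Gene lists by function could not be run without gene names.

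Same-numbered arrays of the lines deviated together from their line means (correlations of 0.3277, 0.1419 and 0.1048, each over 0.1). The main fit did not pair them. The labels do not say what a shared number stands for. Blocks for replicate number and for slide were alternatives.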

Additional observations from a re-analysis of the deposited data

How the results depend on the processing

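None of the 274 calls turned to an opposite call under any alternative fitted by probe. The named probes other than those of U57350 were called with their sign in each of those fits that tested them. They were picked for large differences on these same arrays, so this is no independent check. The U57350 probes passed the filter through SL alone, so their calls say nothing more. Leaving out 1 array in turn gave 244 to 262 called probes (70.3% to 75.5%, against 66.2% to 69.9% of all tested probes). Of these, 141 to 150 were higher and 103 to 116 lower. At least 2-fold, 56 to 62 were higher and 42 to 45 lower in these fits. Their median difference lay between 0.04 and 0.11, and 9 to 12 probes were detected in 1 line only. The replicate block called 267 probes (76.9%, against 71.4% of all tested probes). It kept 261 of the 274 calls in the same direction and changed no call of a named probe, those of U57350 left aside. Scaling on the E1A spike-in probes called 75 probes (42 higher, 33 lower; 21.6%, against 19.1% of all tested probes) and, once a slide block was added, 153 (73 higher; 44.1%, against 46.6%), so the main order of 79.0% against 71.3% turned there. The median difference of the cloned genes was -0.11 under both and moved from -0.04 to -0.22 over all tested probes. The spike-in level itself varied from -1.60 to -0.26 log2 units between arrays. The share of called cloned genes that were higher was 57.3%, and 47.7% when spike-in scaling was joined with that block, where over all tested probes it fell from 48.1% to 35.7%. The median difference moved from 0.08 in the main fit to 0.11 under median scaling, 0.04 under quantile normalization and 0.04 on slide 1 alone. The median level of the cloned genes, a different quantity, had an SD of 0.029 between arrays of a line. It ranged from 0.41 to 0.46 in SL and from 0.61 to 0.67 in ALT301. The lenient detection limit left 3 probes in 1 line only. With probes of 1 record averaged, 189 of 248 records were called (108 higher, 81 lower), and the share over all identifiers is not given for this fit. Leaving out the T records, chosen after seeing the data, gave 271 of 341 probes (156 higher, 115 lower). Other alternatives (normexp, flagged spots kept, the deposited table, both filters, eBayes with trend and robust, the slide block) called 261 to 280 probes. Their shares were 68.0% to 80.7%, against 49.6% to 73.8% over all probes of the same fits. Normexp was run on the median spot signal, and its offset of 50 shrinks the differences of dim probes by itself.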

Other observations

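Records with consecutive numbers are often deposited together by 1 laboratory, as members of a gene family or clones from 1 screen. Among the 278 records on the array, 99 fell into 43 runs of consecutive numbers under the same letter, the longest of 4 records. In 33 runs more than 1 record was tested. Every tested probe was called higher in 3 of these runs and called lower in 4, while calls in both directions occurred in 9. The record means within a run spanned a median of 0.87 log2 units and up to 4.23, against the median span of 0.15 log2 units among probes of 1 record. A run holds different records and the spans cover different numbers of values, so these figures are a description without a test.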
